A study of Mus musculus with 8 samples.

Results

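The insulin-like growth factor (IGF) family examined here comprised 10 genes chosen by name, of 55414 genes in the count table: the ligands Igf1 and Igf2, the receptors Igf1r and Igf2r, and the binding proteins Igfbp2, Igfbp3, Igfbp4, Igfbp5, Igfbp6 and Igfbp7. All were found in the table, and 9 had enough counts to be tested; Igf2 did not. RNA was sequenced from mouse cardiac fibroblasts of strain C57BL/6J, which at passage 2 received either of 2 adenoviruses: one carrying Has2, the enzyme hyaluronan synthase 2 (Has2 virus, 4 libraries), or one carrying green fluorescent protein (GFP virus, 4 libraries). The comparison asks how forced Has2 expression changes the transcripts of these cells. The labels give the genotype as Wild Type, whereas the treatment protocol names Has2fl/fl mice, an allele that both groups would then share; ages are not given. In both groups the cells were starved of serum for 24 h, exposed to virus for 5 h and collected after 48 h in medium with bFGF and TGFb (20 ng/mL each), and they had been expanded in medium containing insulin. Within each virus, replicates 1 and 2 were female and replicates 3 and 4 male, and libraries of the same replicate number carried the same preparation identifier. Whether the preparations were single animals is not stated, so p values measure the spread between these samples.

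IGF1 and IGF2 are small secreted hormones related to insulin that drive growth and survival through IGF1R, a cell surface tyrosine kinase. IGF2R has no such kinase; it is the mannose 6-phosphate receptor, which removes IGF2 from the cell surface and sorts lysosomal enzymes. The binding proteins hold IGFs in the fluid and matrix around cells and so set how much ligand reaches the receptor, while proteases such as PAPP-A release it again. Fibroblasts of the heart are a source of IGF1 and of several binding proteins, and macrophages also make Igf1.

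Libraries held 46981231 to 55795187 counts. Has2 itself was at 3209 to 9533 CPM (the counts-per-million unit, on TMM effective library sizes) in the Has2 libraries and at 7.36 to 25.2 CPM in the GFP libraries, with a log2 fold change of 8.46 (SE 0.55, edgeR adjusted p = 0.0226). All 12 fibroblast markers were above 1 CPM in every library, and their summed level was 25838 to 39825 CPM in the Has2 libraries and 25640 to 39157 CPM in the GFP libraries. Macrophage markers were also present: all 14 exceeded 1 CPM everywhere, with sums of 946 to 2635 CPM in the Has2 libraries and 1005 to 2497 CPM in the GFP libraries. Of 8 cardiomyocyte markers only Tnnt2 exceeded 1 CPM in every library. Hepatocyte markers stood apart in GFP replicate 1, where 10 genes summed to 740 CPM, against 2.49 to 3.57 CPM in the other GFP libraries and 1.81 to 2.93 CPM in the Has2 libraries.

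The family spanned a wide range of levels per transcript length. Igfbp7, a secreted protein that binds IGFs only weakly, was highest, at 1870 ± 119 CPM per kb with the Has2 virus and 1756 ± 255 CPM per kb with the GFP virus (SD, n = 4 each; lengths are those of the longest annotated transcript). On this CPM per kb scale Igfbp6, which prefers IGF2 over IGF1, had a level of 86.0 ± 41.9 with the Has2 virus and 77.0 ± 28.5 with the GFP virus. The level of Igfbp4, the substrate of PAPP-A, was 58.5 ± 22.5 CPM per kb with the Has2 virus and 53.9 ± 20.9 CPM per kb with the GFP virus.

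The receptor Igf2r had a level of 42.7 ± 5.04 CPM per kb with the Has2 virus and 33.3 ± 3.93 CPM per kb with the GFP virus. Igfbp3, the main IGF carrier of blood, stood at 19.5 ± 6.96 CPM per kb with the Has2 virus and 16.5 ± 5.37 CPM per kb with the GFP virus. The signalling receptor Igf1r (10.2 ± 2.78 and 8.89 ± 1.90 CPM per kb with the Has2 and GFP viruses) and the ligand Igf1 (8.89 ± 5.35 and 9.60 ± 2.82 CPM per kb) were at similar levels. Igfbp2 and Igfbp5 were lowest, with means over all 8 libraries of 3.49 and 3.39 CPM per kb.

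Some neighbours in this order were not separated by the spread between libraries. The ranges over 8 libraries did not overlap between Igfbp7 and Igfbp6 or between Igf2r and Igfbp3. The ranges of the other neighbours overlapped, and Igf1r was above Igf1 in 4 of 8 libraries and Igfbp2 above Igfbp5 in 5. Igfbp7 made up 91.6% ± 2.10 of the summed CPM per kb of the 6 binding proteins with the Has2 virus and 91.8% ± 1.64 with the GFP virus (SD, n = 4 each). Igfbp6 contributed 4.26% ± 2.14 with the Has2 virus and 4.17% ± 1.90 with the GFP virus, and Igfbp4 2.85% ± 1.00 with the Has2 virus and 2.78% ± 0.72 with the GFP virus.

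**Figure D1:**
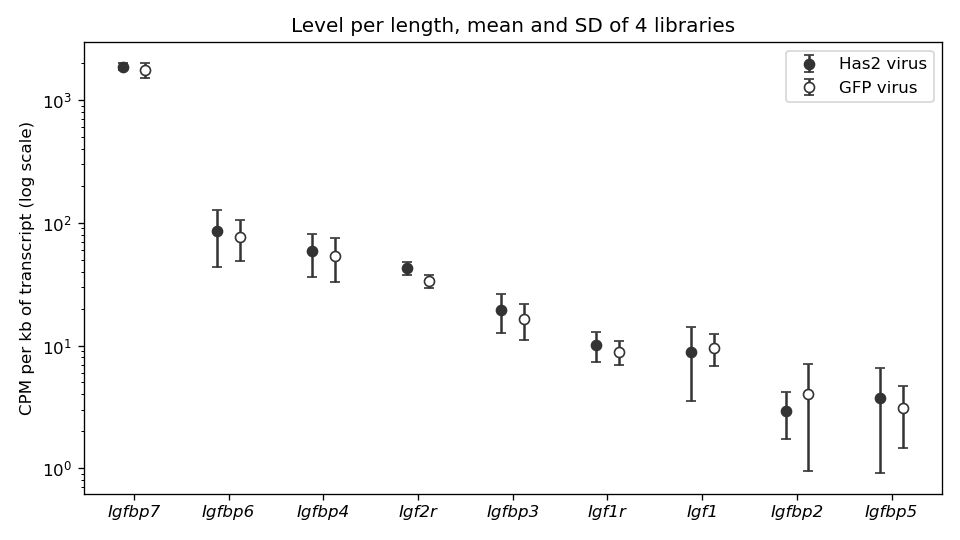
Level per length of the 9 tested IGF genes in CPM per kb of the longest annotated transcript, on a log axis. Points are means and bars SDs of 4 libraries, filled for the Has2 virus and open for the GFP virus; Igfbp7 lies far above the other genes, at 1870 and 1756.

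The promoters of the genes at the top and the bottom of this order are shown as examples. RefSeq windows (build GRCm38.p6, not the build of the counts) run from 250 bases before to 50 after an annotated start; all 10 genes had at least 1 window, 14 in all. Capitals mark the letters GGGCGG, the core of a GC box, or their complement CCGCCC. The TATA box letters, TATAAA or the complement TTTATA, were searched in the same way on both strands. The Igfbp7 window lies at chr5:77407996-77408295 on the minus strand and the Igfbp5 window at chr1:72874816-72875115 on the minus strand.
Igfbp7: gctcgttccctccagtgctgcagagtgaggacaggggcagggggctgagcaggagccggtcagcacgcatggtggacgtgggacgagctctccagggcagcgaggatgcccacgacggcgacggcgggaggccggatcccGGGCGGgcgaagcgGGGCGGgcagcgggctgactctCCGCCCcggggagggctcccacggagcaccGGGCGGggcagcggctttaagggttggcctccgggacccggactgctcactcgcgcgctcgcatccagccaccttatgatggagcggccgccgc
Igfbp5: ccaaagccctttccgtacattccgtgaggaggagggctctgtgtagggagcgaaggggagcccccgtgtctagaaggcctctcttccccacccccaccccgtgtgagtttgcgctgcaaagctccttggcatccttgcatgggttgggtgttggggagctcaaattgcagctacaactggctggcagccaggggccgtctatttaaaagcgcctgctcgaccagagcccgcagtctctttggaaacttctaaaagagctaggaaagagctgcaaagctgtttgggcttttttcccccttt
The Igfbp7 window has a GC content of 73.3%, 33 CpG sites and 4 matches to the GC box letters, and the Igfbp5 window a GC content of 56.3%, 10 CpG sites and 0 matches. Other members did not follow this contrast. The window of Igfbp6, next below Igfbp7 in level, has a GC content of 49.7%, 8 CpG sites and 0 matches. The windows of Igfbp2, close to Igfbp5 in level, have GC contents of 67% and 57.3%, with 3 and 0 matches. Of the family's 14 windows 6 held GGGCGG on either strand, and 35.7% of all 32851 windows did. TATAAA on either strand was found in 2 windows, those of Igfbp4 and Igfbp6, and in 13.6% of all windows. These are matches of letters and were not tested as binding sites.

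No member passed the test for the effect of the Has2 virus. Paired by replicate number, 0 of 9 members had an edgeR quasi-likelihood adjusted p under 0.05, against 0.00660% of the 15150 genes tested, which is Has2 alone. At an unadjusted p under 0.05 there was 1 member, Igf2r, against 7.49% of all genes; limma-voom and DESeq2 with the same pairing also called 0 members. The log2 fold changes of the members ran from -0.28 to 0.36, with a median of 0.11, against -0.02 over all genes. Of the 9 members 7 were positive, as were 6855 of the 15150 genes. The groups overlapped for every one of the 9 members; all Has2 libraries lay above all GFP libraries for 0.871% of genes and below for 1.51%. In bulk RNA, fewer cells that express a gene and less RNA per cell cannot be told apart.

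Among the ligands, Igf1 (ENSMUSG00000020053, chromosome 10) was measured at 117, 58.1, 33.0 and 42.6 CPM in Has2 replicates 1 to 4, against 96.7, 52.3, 57.7 and 64.3 CPM in GFP replicates 1 to 4. The Has2 libraries therefore enclosed the GFP libraries, and replicate 1 was highest with either virus. Its fitted log2 fold change of -0.24 (SE 0.20) had a 95% interval of -0.72 to 0.24 and an edgeR adjusted p of 0.728. Once the trend of each library on transcript GC content and length was removed it was 0.13 (SE 0.09), so its sign turned. The summed macrophage markers were 2353, 946, 2036 and 2635 CPM in Has2 replicates 1 to 4 and 2497, 1005, 1809 and 2286 CPM in GFP replicates 1 to 4; their part in the level of Igf1 was not tested.

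Igf2 (ENSMUSG00000048583, chromosome 7), the fetal growth factor of the family, was nearly absent from the table. Its counts were 2, 3, 0 and 4 in Has2 replicates 1 to 4 and 2, 0, 1 and 0 in GFP replicates 1 to 4, at or close to the 3 counts that a count of 0 allows (0.0539 to 0.0657 CPM, counting error only), and no fold change is given. The annotated gene Gm49394 covers 62.8% of the exon bases of Igf2 on the same strand and had 0 counts in all 8 libraries. Reads that overlap 2 genes can be left uncounted by HTSeq, whose setting is not given, so absence of Igf2 RNA and loss of its reads in counting cannot be told apart. H19, the imprinted neighbour of Igf2, averaged 3.27 CPM over the 8 libraries.

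Among the receptors, Igf2r (ENSMUSG00000023830, chromosome 17) had the smallest p of the family. It was at 409, 425, 357 and 328 CPM in Has2 replicates 1 to 4, against 323, 259, 274 and 329 CPM in GFP replicates 1 to 4. Its level was higher with the Has2 virus in 3 pairs and all but equal in the pair of replicate 4. The fitted log2 fold change of 0.36 (SE 0.13) had a 95% interval of 0.06 to 0.66, an unadjusted p of 0.0262 and an edgeR adjusted p of 0.648. After removal of the GC and length trend the value was 0.28 (SE 0.07, edgeR adjusted p = 0.336), and again 0 of 9 members passed, against 0.0132% of all genes. Airn, a noncoding RNA antisense to Igf2r, was at 3.10 to 6.27 CPM in the Has2 libraries and 3.89 to 4.67 CPM in the GFP libraries, and its annotated exons share no base with those of Igf2r.

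Igf1r (ENSMUSG00000005533, chromosome 7) had 155, 128, 95.8 and 85.7 CPM in Has2 replicates 1 to 4, against 132, 100.2, 87.8 and 85.1 CPM in GFP replicates 1 to 4. Every pair had the higher level with the Has2 virus, by as little as 0.01 on the log2 scale in replicate 4 and as much as 0.36 in replicate 2. The 95% interval around its log2 fold change of 0.18 (SE 0.10) ran from -0.05 to 0.41, with an edgeR adjusted p of 0.651. Levels in the female cultures were above those of the male cultures with the same virus.

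Among the binding proteins, Igfbp3 (ENSMUSG00000020427, chromosome 11) was at 41.7, 50.2, 28.5 and 68.7 CPM in Has2 replicates 1 to 4, against 39.4, 45.4, 22.5 and 53.0 CPM in GFP replicates 1 to 4. The 4 preparations kept the same order with both viruses, and each was higher with the Has2 virus. For its log2 fold change of 0.24 (SE 0.10) the unadjusted p was 0.0529 and the edgeR adjusted p 0.648. Igfbp3 and Igf1r were the 2 of 9 members higher in all 4 pairs, against 9.16% of all genes, and 0 members were lower in all 4, against 7.96%.

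Igfbp7 (ENSMUSG00000036256, chromosome 5) was measured at 2352, 2363, 2196 and 2062 CPM in Has2 replicates 1 to 4, against 2190, 2504, 1878 and 1856 CPM in GFP replicates 1 to 4. It was the steadiest of the tested members, with a range of 0.43 on the log2 scale over the 8 libraries, and the fitted log2 fold change of 0.10 (SE 0.10) had an interval of -0.14 to 0.34. An exon of Polr2b on the opposite strand covers 7.03% of its exon bases, and whether counting used the strand is not given. Igfbp4 (ENSMUSG00000017493, chromosome 11) had 147, 348, 203 and 199 CPM in Has2 replicates 1 to 4, against 153, 325, 176 and 172 CPM in GFP replicates 1 to 4. Replicate 2 was the highest preparation of Igfbp4 with either virus, and the log2 fold change was 0.11 (SE 0.09).

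Igfbp5 (ENSMUSG00000026185, chromosome 1), a binding protein that adheres to extracellular matrix, was measured at 19.8, 46.6, 14.3 and 8.59 CPM in Has2 replicates 1 to 4, against 14.9, 32.8, 14.2 and 11.9 CPM in GFP replicates 1 to 4. Replicate 2 was again highest with both viruses, and the range of 2.44 on the log2 scale was the widest of the 9 tested members. Its log2 fold change was 0.12 (SE 0.17). Igfbp6 (ENSMUSG00000023046, chromosome 15) stood at 57.0, 60.4, 156 and 109 CPM in Has2 replicates 1 to 4, against 62.6, 66.6, 131 and 82.0 CPM in GFP replicates 1 to 4. All male levels of Igfbp6 lay above all female levels, and the log2 fold change was 0.10 (SE 0.12).

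**Figure D2:**
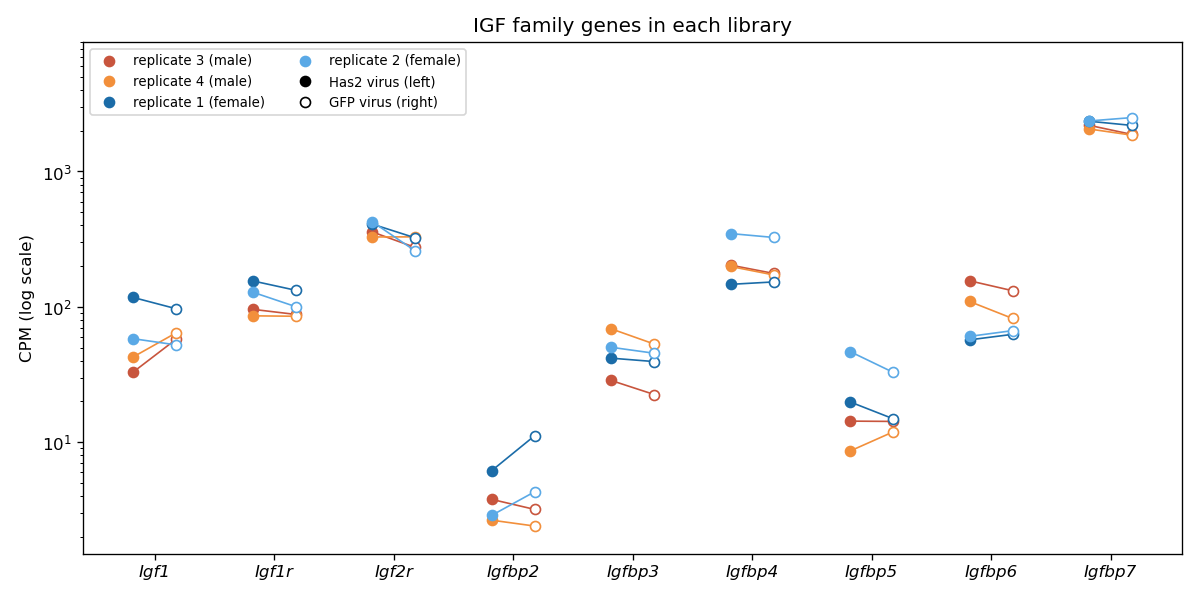
Level in CPM (log axis) of the 9 tested IGF genes in each of the 8 libraries, filled points for the Has2 virus on the left and open points for the GFP virus on the right of each gene, with lines joining libraries of the same replicate number. Preparations differ more than viruses do for genes such as Igfbp5, where replicate 2 is at 46.6 and 32.8 and replicate 4 at 8.59 and 11.9.

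Igfbp2 (ENSMUSG00000039323, chromosome 1), a binding protein also made by liver, was the least counted of the tested members, and its highest library was the one that held hepatocyte transcripts. It was at 6.15, 2.87, 3.77 and 2.65 CPM in Has2 replicates 1 to 4, against 11.2, 4.29, 3.18 and 2.39 CPM in GFP replicates 1 to 4. GFP replicate 1, the highest for Igfbp2, was the library in which the 10 hepatocyte markers summed to 740 CPM, among them albumin (Alb) at 450 CPM. The same library held 42 counts of Igfals and 6 of Igfbp1, both made by liver, against 0 to 3 and 0 in the other libraries. The Has2 library of the same preparation was next highest for Igfbp2, at 6.15 CPM, with a hepatocyte marker sum of 1.81 CPM. The log2 fold change of Igfbp2 was -0.28 (SE 0.22, edgeR adjusted p = 0.715). Without the pair of replicate 1 it was -0.03. Igfbp2 was also lower with the Has2 virus in replicate 2, whose GFP library had 3.57 CPM of hepatocyte markers; the part of liver transcripts in the level of Igfbp2 was not tested.

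**Figure D3:**
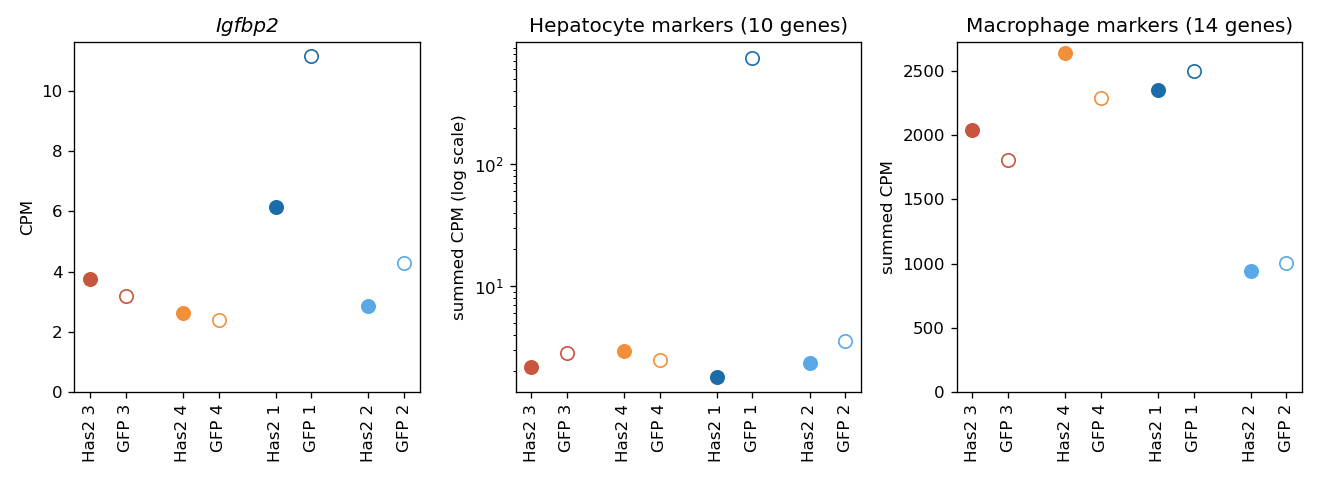
Igfbp2 in CPM (left), the summed level of 10 hepatocyte markers (middle, log axis) and of 14 macrophage markers (right) in each library, filled for the Has2 virus and open for the GFP virus. GFP replicate 1 is the highest library for Igfbp2 (11.2) and for hepatocyte markers (740).

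The labels also give sex, so the response was compared between male and female pairs. The male cultures also come from another series of preparation identifiers than the female ones, and sex and series cannot be told apart. Has2 itself stood at 9533 and 8406 CPM in the female Has2 libraries, against 3209 and 4860 CPM in the male ones. Its male minus female difference in log2 fold change was -1.66 (SE 0.38, edgeR adjusted p = 0.0084). With the GC and length trend removed it was -0.84 (SE 0.39, edgeR adjusted p = 0.218). The part of the Has2 level in the differences of the members was not tested. Of the 9 members 4 differed in their response, against 29.5% of all genes. With 2 pairs of a single sex alone, 3 members were called in males (Igf1, Igfbp3 and Igfbp6), against 32.9% of all genes, and 3 in females (Igf2r, Igfbp2 and Igfbp5), against 4.78%. The joint edgeR fit of both sexes called the same 3 members in each sex, against 1095 of the 15150 genes in females and 3765 in males. After removal of the GC and length trend that fit called 0 members in either sex, against 413 genes in females and 1848 in males. Igf1 had a log2 fold change of -0.70 in male pairs and 0.22 in female pairs, a male minus female difference of -0.92 (SE 0.13, edgeR adjusted p = 0.00042). Igfbp5 had -0.22 in male and 0.46 in female pairs (difference -0.68, SE 0.17, edgeR adjusted p = 0.0115). Igfbp2 had 0.20 in male and -0.74 in female pairs (difference 0.94, SE 0.22, edgeR adjusted p = 0.0088). Igfbp6 had 0.33 in male and -0.14 in female pairs (difference 0.47, SE 0.12, edgeR adjusted p = 0.0145). Without the replicate block 0 members and 0 genes in all were called, with adjusted p values of 0.499 to 0.721 for these 4.

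Within pairs the directions were uniform for 3 of these 4 genes. The 4 were picked by their difference between these same pairs, so the directions are no separate evidence. Igf1 was lower with the Has2 virus by 0.81 and 0.59 on the log2 scale in the male pairs and higher in both female pairs, as were 15.9% of all genes. Igfbp2 and Igfbp6 were higher in both male pairs and lower in both female pairs, a pattern whose share over all genes was not counted. For Igfbp5 the male pairs split, with 0.01 in replicate 3 and -0.47 in replicate 4, and the female pairs stood at 0.41 and 0.51. Without replicate 4 the difference of Igfbp5 was -0.42 (edgeR adjusted p = 0.179) and that of Igfbp6 0.41 (edgeR adjusted p = 0.147). Without replicate 3 that of Igfbp2 was 0.88 (edgeR adjusted p = 0.0761), and without replicate 1, which holds the library with hepatocyte transcripts, it was 0.80 (edgeR adjusted p = 0.0307).

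**Figure D4:**
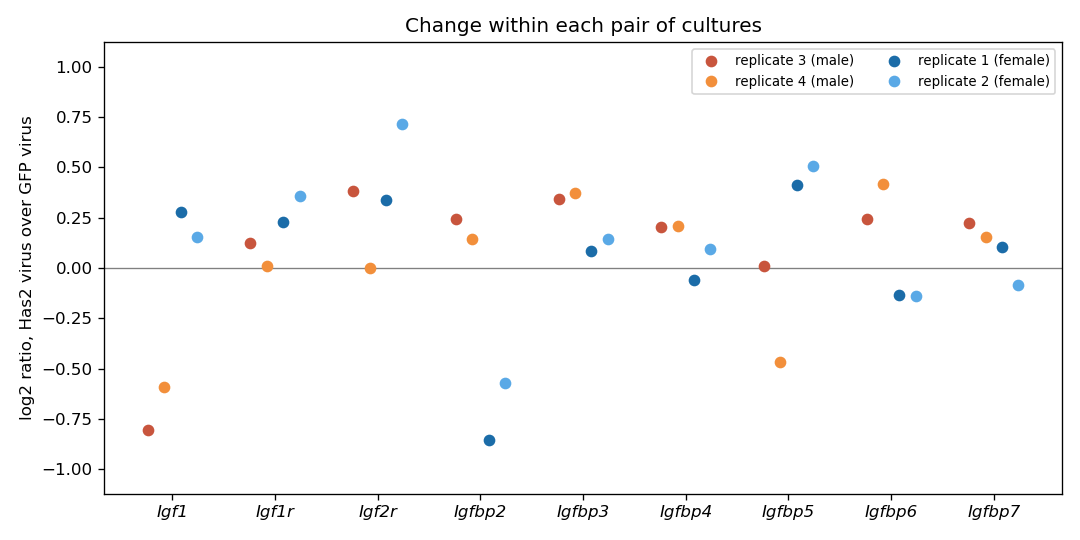
Change of the 9 tested IGF genes within each pair of cultures, as the log2 ratio of CPM with the Has2 virus over the GFP virus (vertical axis, prior count of 2), male pairs to the left of female pairs. Igf1 is below 0 in both male pairs and above 0 in both female pairs; Igfbp2 and Igfbp6 show the opposite.

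The change within a pair also varied with transcript GC content. Correlations were taken over the 99.8% of the 15150 tested genes with GC content and length available, which do not count as replicates. The Spearman correlation of change with GC content was 0.66 and 0.64 in male pairs, against -0.22 and -0.17 in female pairs. That with transcript length was -0.097 and -0.36 in male pairs, against 0.25 and 0.49 in female pairs. Igf1 has the lowest GC content of the family (38.0%), and the trend of all genes at its GC content and length was -1.0 and -0.99 in male pairs, against 0.20 and 0.30 in female pairs. Igfbp2 and Igfbp6 have the highest (62.1% and 60.7%), with trends of 0.20 and 0.32 for Igfbp2 and 0.18 and 0.33 for Igfbp6 in male pairs, and of -0.20 and -0.25 for Igfbp2 and -0.21 and -0.28 for Igfbp6 in the female pairs. Igfbp5 is at 50.3%, with trends between -0.09 and 0.19.

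With this trend taken out of every library, 1 of 9 members was still called, against 10.6% of all genes. That member was Igfbp5, with log2 fold changes of -0.20 in male and 0.34 in female pairs (difference -0.55, SE 0.14, edgeR adjusted p = 0.0367). The difference of Igf1 turned in sign to 0.33 (SE 0.12, edgeR adjusted p = 0.115). That of Igfbp2 was 0.46 (SE 0.21, edgeR adjusted p = 0.221) and that of Igfbp6 -0.03 (SE 0.09, edgeR adjusted p = 0.882).

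**Figure D5:**
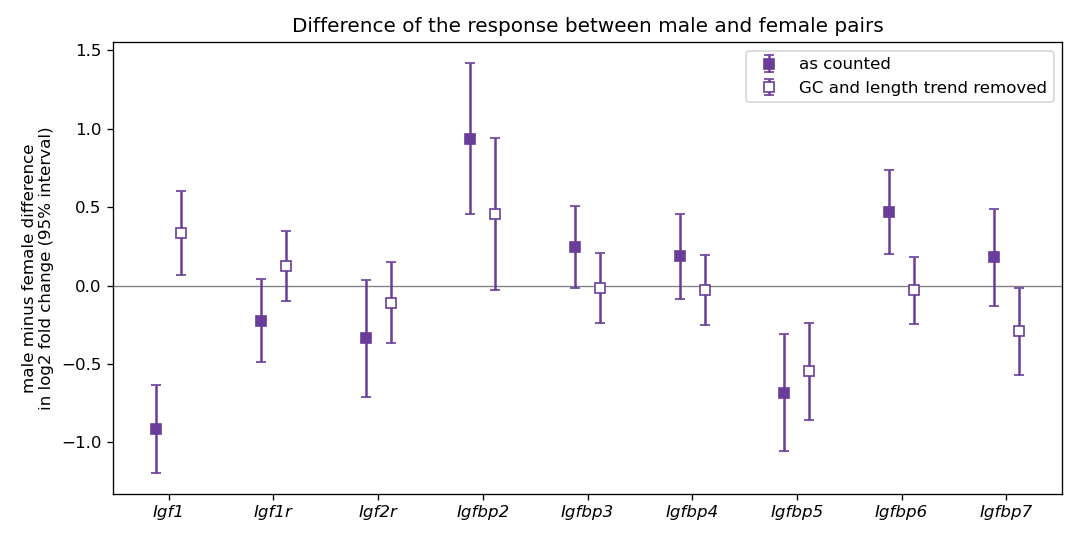
Male minus female difference in the log2 fold change of each tested IGF gene, with 95% intervals from the edgeR fit with the replicate block, filled as counted and open after removal of the GC and length trend. The difference of Igf1 lies at -0.92 as counted and at 0.33 with the trend removed, whereas that of Igfbp5 is at -0.68 and -0.55.

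Levels without Has2 virus also varied between preparations. In a fit of 4 groups, male and female GFP libraries differed in 0 of 9 members at an edgeR adjusted p under 0.05, against 0.0396% of all genes (6 genes). Of the members 3 had an unadjusted p under 0.05 in this edgeR fit, as had 778 of the 15150 genes tested. They were Igfbp6, with a male minus female log2 difference of 0.72 (SE 0.25), Igfbp2 with -1.47 (SE 0.53) and Igf1r with -0.43 (SE 0.17). Igfbp6 was at 131 and 82.0 CPM in the male and 62.6 and 66.6 CPM in the female GFP libraries. Igfbp2 was at 3.18 and 2.39 CPM in the male and at 11.2 and 4.29 CPM in the female GFP libraries, the highest being the library with hepatocyte transcripts.

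Other genes that act with the family were taken from a list of 34, of which 30 were tested; Igfals, Igfbp1, Igfbpl1 and Igf2os had too few counts. The list holds the insulin receptor, IGFBP proteases and their inhibitors, adaptors, and the PI3K, AKT and mTOR kinases. For the effect of the Has2 virus 0 passed in either direction (edgeR, replicate block), the log2 fold changes ran from -0.58 to 0.27, and the median was 0.04, against -0.02 over all genes. At an unadjusted p under 0.05 there were 3, all positive in this fit, against 2.57% of all genes in that direction. Without the replicate block there were 0, against 388 of the 15150 genes. Once the GC and length trend was removed there were 2 positive and 4 negative, against 867 and 727 of the 15150 genes. Grb14 and Grb10, adaptors that bind activated insulin and IGF1 receptors and restrain them, had log2 fold changes of 0.27 (SE 0.09) and 0.22 (SE 0.09), and of 0.64 (SE 0.14) and 0.21 (SE 0.06) once that trend was removed. Tsc2, an inhibitor of mTOR signalling, had 0.23 (SE 0.09), and the RNA-binding protein gene Igf2bp1, next in order of p, -0.56 (SE 0.24) at 0.732 ± 0.198 CPM with the Has2 virus and 1.10 ± 0.413 CPM with the GFP virus (SD, n = 4 each). Higher in all 4 pairs were 5 of the 30, namely Grb10, Grb14, Akt2, Tsc2 and Mtor, against 9.16% of all genes, and 0 were lower in all 4, against 7.96%; Akt2 and Mtor were named after their values were seen.

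In the male minus female difference 13 of the 30 were called, against 29.5% of all genes: 11 had a lower response in male pairs, as had 2722 of the 15150 genes, and 2 a higher one, as had 1748. Among the 11 were the IGFBP protease Pappa, its inhibitor Stc1, the adaptor Irs1, the signalling genes Pik3ca, Pik3r1, Pdpk1 and Rps6kb1, and the RNA-binding protein genes Igf2bp2 and Igf2bp3. The differences of these named genes ran from -1.26 for Stc1 to -0.42 for Igf2bp2, and their GC contents from 39.2% to 50.3%. The 2 in the other direction, the protease Htra1 (0.39) and the kinase Akt1 (0.45), have GC contents of 56.1% and 59.7%. After removal of the GC and length trend 2 of the 30 were called, against 10.6% of all genes: Pik3r1 at -0.42 (edgeR adjusted p = 0.0291) and Grb14 at 0.67 (edgeR adjusted p = 0.0081), Grb14 not being among the 13.

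The profiles most like those of 2 members were looked up among 10304 other genes with a mean of at least 5 CPM, as the root mean square difference of centred log2 CPM over the 8 libraries. For Igfbp7, the member of the highest level, these were Dazap2 (0.039), Sec14l1 (0.044) and Rhoj (0.047). For Igfbp5, the member with the widest range, they were Kif26b (0.17), Gab1 (0.20) and Sfrp1 (0.21), whose own ranges were 2.32, 1.79 and 1.90 on the log2 scale. The 8 libraries come from 4 preparations, each given both viruses, so they are not 8 independent samples.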

How the data were processed

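Libraries from 8 cultures were made with a stranded mRNA kit (labels' protocols). A single table of raw counts by Ensembl gene was deposited by the authors. FastQC 0.10.1, HTSeq 0.10.0 and the build mm39 (GRCm39) are named in the submitters' processing notes. Which aligner, annotation release and strand setting were used is not given in the sources used here. Symbols, GC content and transcript length came from GENCODE release M 21, on an older build, by Ensembl identifier: 52081 identifiers matched and 3333 did not (0.405% to 0.871% of the counts of a library). GC content and length were available for 99.8% of the genes tested.

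Groups and replicate numbers came from the labels. The members and gene lists were chosen with earlier results of these data known. Tests used the quasi-likelihood F-test of edgeR 4.0.16 under R 4.3.3 after TMM scaling and filterByExpr (15150 genes kept), with replicate number as a block and Benjamini-Hochberg adjustment over all genes. Its calls were made at an adjusted p under 0.05. The pairing follows the shared preparation identifiers, and deviations from group means correlated at 0.58, 0.62, 0.53 and 0.44 within the 4 pairs. The male minus female difference used the same block, and the comparison of GFP libraries 4 groups without it. Libraries of a group differed beyond sampling noise in every pairing (chi-square 45.4 to 364 times its degrees of freedom).

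The GC and length trend was a spline (5 degrees of freedom each) fitted to the deviations of each library and entered as an offset. Other alternatives were no block, other scalings and filters, DESeq2 1.42.0, limma-voom (limma 3.58.1), each sex alone, and leaving out each pair or library. The fits were tested on simulated data. Named by rule were the 10 members, Has2, called genes of the pathway list or its 4 of smallest p, and 3 genes of similar profile each for 2 members; some called pathway genes are not reported here by name. Precision is limited by 4 pairs, intervals of fold changes carry the spread between cultures, and the floor given for Igf2 covers counting error only.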

Additional observations from a re-analysis of the deposited data

Results flagged for a closer look

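In 22 groups of 4 libraries examined for a library far from the others (10 members and the hepatocyte marker sum, in each virus), 3 were found; chance gives about 1 in 20. GFP replicate 2 stood apart for Igfbp4 (325 CPM, against 153 to 176 CPM in the other GFP libraries, a gap of 0.862 of the range) and for Igfbp5 (32.8 CPM, against 11.9 to 14.9 CPM, a gap of 0.857 of the range). The Has2 library of the same preparation was also the highest for both genes. GFP replicate 1 stood apart for the hepatocyte marker sum, with a gap of 0.999 of the range.

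The response differed between male and female pairs for Igf1 (male minus female -0.92), Igfbp2 (0.94), Igfbp5 (-0.68) and Igfbp6 (0.47), by the edgeR test of the difference itself with the replicate block. After removal of the GC and length trend, of these 4 that of Igfbp5 alone was still called.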

How the results depend on the processing

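For the effect of the Has2 virus 0 members and 0 of the 30 tested pathway genes passed under every alternative over both sexes (edgeR without the replicate block, other scalings and filters, DESeq2, limma-voom, the GC and length trend removed, adjusted p thresholds of 0.01 and 0.1, and each pair or library left out). With 2 pairs alone, 3 members and 1 pathway gene were called in females, where 732 genes (4.78%) were, and 3 members and 14 pathway genes in males, where 5035 genes (32.9%) were.

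Over all genes the count of 1 became 0 at an adjusted p under 0.01, with library totals only, or with scaling without Has2 counts, which leaves Has2 out of the test. It was 118 without an expression filter, 61 with DESeq2, 7 with DESeq2 without the replicate block, and 2 with the trend removed; leaving out pairs or libraries gave 0 (without replicate 1) to 1. For the male minus female difference, 4470 genes and 4 members became 0 and 0 without the replicate block and 1610 and 1 with the trend removed; leaving out pairs gave 2353 to 4972 genes and 2 to 5 members, the lowest without replicate 4. Between male and female GFP libraries 6 genes became 0 with the GFP libraries alone and 84 with DESeq2, and leaving out libraries gave 0 to 19, the highest without GFP replicate 2. Other causes were not tested.

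Signs of uncalled members turned in some alternatives. Igf1 was at 0.13 with the trend removed, with or without the block, and at 0.23 in female pairs, and it was 0.10 without Has2 replicate 3 and 0.036 without Has2 replicate 4; Igfbp6 was at -0.12 in female pairs, and Igfbp2 at 0.19 and Igfbp5 at -0.22 in male pairs. Leaving out single libraries or pairs gave -0.59 to 0.13 for Igf1, -0.74 to 0.27 for Igfbp2, -0.18 to 0.42 for Igfbp4, -0.37 to 0.71 for Igfbp5 (-0.011 to 0.34 over the pairs alone) and -0.18 to 0.46 for Igfbp6. For the members higher in all 4 pairs, leaving out single libraries (without the replicate block) gave 0.0044 to 0.44 for Igfbp3 and 0.04 to 0.38 for Igf1r, the lowest without Has2 replicate 4 and without Has2 replicate 1. With the trend removed the male minus female differences that turned in sign were 0.33 for Igf1, 0.13 for Igf1r, -0.014 for Igfbp3, -0.028 for Igfbp4, -0.030 for Igfbp6 and -0.29 for Igfbp7. Every alternative listed was run. Depth limits Igf2, at 0 to 4 counts, and to a lesser extent Igfbp2, at 121 to 528 counts per library.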
